A study of Mus musculus with 6 samples.

Results

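The genes described here belong to families that serve the secretion of cerebrospinal fluid by the choroid plexus: Atp1b1 of the sodium pump, the carbonic anhydrases Car5b, Car8 and Car13, and the water channels Aqp4 and Aqp11. Matching each gene symbol in full, they were looked up in the gene-level table and in the splicing index table deposited by the authors, and all 6 were found among the 4300 gene symbols that these tables hold. Each of them had a transcript cluster of its own, which is the set of exon probe sets that together measure a gene on the array. Lateral ventricular choroid plexus of Swiss Webster mice was taken whole, and the arrays compared E15 embryos of mixed sex, pooled by 30 for an array according to the sample labels, with healthy adult females pooled by 10. The numbers of animals in a pool are given differently in the study's supplementary description. There were 3 arrays at each age, and neither group carried a treatment or a targeted allele. Every difference between the ages is therefore also one between mixed-sex and female pools, and age and sex cannot be told apart.

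Cerebrospinal fluid is secreted by the epithelium of the plexus, which moves sodium, bicarbonate and chloride into the ventricle with water following. The sodium pump is made of a catalytic alpha subunit and a beta subunit that is needed to bring the pump to the cell surface, and in this epithelium it lies in the apical membrane. Carbonic anhydrases interconvert carbon dioxide and water with bicarbonate and protons, and aquaporins are channels that let water cross membranes.

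The authors deposited log2 values in which the 3 arrays of an age had been merged, so that a cluster has 1 value per age. The pair is centred close to 0, the sum of both values having a median size of 0.10 in the gene-level table. It carries how far the ages are apart but no level, and genes cannot be ordered by how strongly they are expressed. Differences are given as adult minus E15, and folds were computed as 2 raised to their size. As 0 columns of the tables used here hold a single array, no error or test is given for any value: array-level data did not enter this comparison. The gene-level table holds 1805 clusters that the authors kept when the corrected p was 0.05 or below and the fold was 2 or more, so a gene listed there had passed their unpaired test. Per the study's methods, genes had first been filtered on expression, so that a gene absent from the gene-level table may have failed the filter, the test or the fold, which cannot be told apart here. A gene only in the splicing index table did not pass all of them, whatever its fold. The splicing index table holds 3369 clusters kept for an exon-level score, and 2151 of them are not in the first table.

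Upstream sequences are shown for the 3 of the 6 members that were matched in the RefSeq promoter table. They were chosen by that match alone, to show the sequence in front of these genes. They are the 250 bases before the annotated start of each gene in GRCm38.p6, a C57BL/6J assembly and not the strain studied, written 5′ to 3′ on the strand of the gene. Capitals mark the GC box GGGCGG and the CCAAT box, on either strand. Atp1b1 is at chr1:164458356-164458605, Car5b at chrX:164028011-164028260 and Aqp11 at chr7:97738248-97738497, all on the minus strand.
Atp1b1: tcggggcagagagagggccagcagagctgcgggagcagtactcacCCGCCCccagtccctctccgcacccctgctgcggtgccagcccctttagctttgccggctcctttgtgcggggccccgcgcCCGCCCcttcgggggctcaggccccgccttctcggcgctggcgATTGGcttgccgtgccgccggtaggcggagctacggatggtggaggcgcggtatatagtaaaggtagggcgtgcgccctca
Car5b: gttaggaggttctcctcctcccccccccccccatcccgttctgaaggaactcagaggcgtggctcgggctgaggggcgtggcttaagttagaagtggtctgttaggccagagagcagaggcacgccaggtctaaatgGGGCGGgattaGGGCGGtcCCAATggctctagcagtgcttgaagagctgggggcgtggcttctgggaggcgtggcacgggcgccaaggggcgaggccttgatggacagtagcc
Aqp11: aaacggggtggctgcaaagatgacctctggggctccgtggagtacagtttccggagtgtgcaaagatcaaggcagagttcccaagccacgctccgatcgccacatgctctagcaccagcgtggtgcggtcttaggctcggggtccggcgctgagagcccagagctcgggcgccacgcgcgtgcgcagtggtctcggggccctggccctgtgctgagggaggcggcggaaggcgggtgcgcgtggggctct

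The upstream sequences of Atp1b1 and Car5b each held 2 matches to the GC box and 1 to the CCAAT box, and that of Aqp11 held 0 of either. In Atp1b1 the GC boxes began 205 and 124 bases before the start and the CCAAT box 81 bases before it. In Car5b they began 113, 102 and 94 bases before the start. No match shared letters with another. A GC box was found in 32.7% of the 32851 windows of the same length in the RefSeq table, and a CCAAT box in 33.8%. The letters TATAAA, present in 12.4% of the windows, were in none of the 3 sequences. The G and C content was 70.4% for Atp1b1, 63.6% for Car5b and 67.2% for Aqp11, with a median of 52.4% over all windows. These matches are descriptions of the sequence, since no binding was measured.

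Of the 6 genes, 5 were in the gene-level table, and the adult value was the higher in all 5. The same direction was found for 48.8% of the clusters of that table, and 51.2% were higher at E15. In the splicing index table, 4 of the 5 members listed there were at least 2-fold higher in adult, as were 17.6% of its 3369 clusters. These 4 are also in the gene-level table with identical values, so they are no second observation. The sixth, Aqp11, was only in the splicing index table and differed by less than 2-fold. Members were in the gene-level table because they differed, so the count of 5 describes the table and is no evidence on secretion genes in general. Their folds ran from 2.38 for Aqp4 to 8.72 for Car5b, with a median of 3.58, beside a median of 2.67 over the 880 clusters with the same direction.

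**Figure D1:**
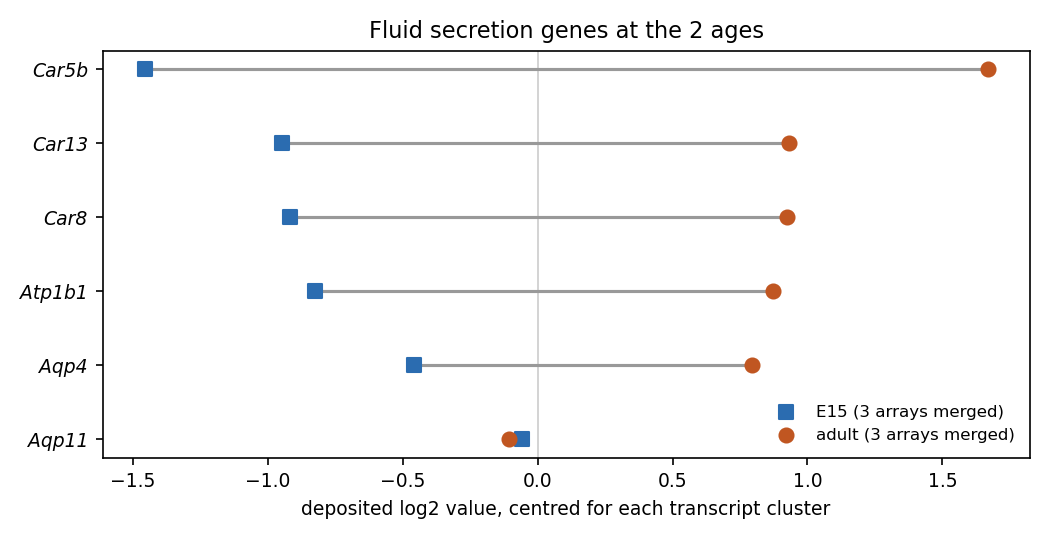
The deposited log2 values of each gene are plotted for E15 (squares) and adult (circles), each point being 3 arrays merged by the authors, with no error available. The adult point lies right of 0 and the E15 point left of 0 for 5 genes, with the widest gap for Car5b, and both points of Aqp11 lie just below 0.

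Atp1b1 encodes the main beta subunit of the sodium pump. Its merged value was 0.87 in adult and -0.82 at E15, a difference of 1.70 or 3.25-fold toward adult. It became 2.55 when the gene-level table's median was set to 0 at either age, and 1.86 with the medians of the splicing index table. The first table was selected on fold, so its median depends on how many clusters were kept on each side. The cluster (6763706) is described in the files as ATPase, Na+/K+ transporting, beta 1 polypeptide, and 11 probe sets entered its splicing index.

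The other beta subunits looked up, Atp1b2, Atp1b3 and Atp1b4, were in neither table, and Atp1b1 could not be compared with them.

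Small membrane proteins of the FXYD family bind the pump and tune its affinity for ions. Fxyd1, called phospholemman, was 2.11-fold higher in adult (difference 1.08), while Fxyd6 was 3.26-fold higher at E15 (difference -1.70). Both were in the gene-level table, and the other 5 genes of this list were in neither. Nkain4, whose product is named for its interaction with the pump, was 7.18-fold higher at E15 (difference -2.84). Setting the table median of either age to 0 took Fxyd6 to -0.85, under 2-fold. The partners of the pump with a value therefore lay on both sides of 0.

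Car5b had the largest difference among the 6 genes. It encodes a carbonic anhydrase of mitochondria, the others here being cytosolic, and it supplies bicarbonate to reactions inside that organelle. The merged values of its cluster (7020676) were 1.67 in adult and -1.46 at E15, a difference of 3.12 and a fold of 8.72. Car5b lies on the X chromosome, and the adult pools were female whereas the E15 pools were mixed. For this gene too, age and sex cannot be told apart.

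Car13, a cytosolic enzyme, had 0.93 in adult and -0.95 at E15. Its difference was 1.88, a fold of 3.67. Car8 encodes a related protein that lacks carbonic anhydrase activity and is known from Purkinje cells, where it binds the inositol trisphosphate receptor. Its values were 0.92 and -0.92, so that the ages were 1.84 apart, or 3.58-fold. Car13 and Car8 were thus almost alike, with 0.04 between their differences on the log2 scale, whereas the difference of Car5b exceeded that of Car13 by 1.25. Setting the medians of the gene-level table to 0 gave folds of 15.8 for Car5b, 6.48 for Car8 and 6.65 for Car13, and with those of the splicing index table Car5b had 9.77 and Car13 had 4.12. Without values for single arrays it cannot be said whether these gaps exceed the spread between pools.

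Car8 was the only one of the 6 that was in the gene-level table and not in the splicing index table. For Car5b and Car13, 8 and 10 probe sets entered the index. Of the 16 carbonic anhydrases looked up, only these 3 members were in the gene-level table. All were higher in adult, as were 48.8% of its clusters. Car10, another relative without enzyme activity, was only in the splicing index table, with -0.02 in adult and -0.04 at E15, a difference of 0.03. The other 12, among them Car2, Car4, Car12 and Car14, were in neither table, so the cytosolic and membrane-bound enzymes usually named for the plexus have no value here. Itpr1, the receptor to which the Car8 protein binds, was 2.27-fold higher in adult (difference 1.18).

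Aqp4 is the main water channel of astrocytes and of ependyma. The merged values of its cluster (6863605) were 0.79 in adult and -0.46 at E15, a difference of 1.25 and a fold of 2.38, the smallest of the members in the gene-level table. With the medians of the gene-level table set to 0 it was 2.11, and it was 1.42 with those of the splicing index table. These values cancelled less well than those of the other members. Their sum was 0.34, against 0.21 for Car5b, from -0.01 to 0.05 for Car13, Car8 and Atp1b1, and a median size of 0.10 over the gene-level table. What sets this sum is not stated in the files, and its bearing on the difference was not tested.

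Aqp11 belongs to a divergent branch of the family and is found in membranes inside the cell, with a role in the kidney. Its merged value was -0.10 in adult and -0.06 at E15, a difference of -0.05 and a fold of 1.03. Only 107 of the 3369 clusters in the splicing index table (3.18%) had a smaller fold. The sign of so small a difference depends on the centring, since it became 0.12 when each age was centred on the median of the table. It was measured by a cluster from which 7 probe sets entered the index, against 10 for Aqp4.

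Another aquaporin, Mip, also called aquaporin 0 and known as the water channel of lens fibres, was in the gene-level table in the other direction. Its values were -0.91 in adult and 0.93 at E15, which is 3.58-fold higher at E15 (difference -1.84, or -0.98 and under 2-fold with the table medians set to 0). The aquaporins with a value thus lay at 1.25, -0.05 and -1.84 and shared no direction. The other 9 of the 12 looked up, Aqp1 included, which is the abundant water channel of this epithelium, were in neither table.

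Among the 880 clusters higher in adult in the gene-level table, Car5b ranked 44th by fold. Car13 ranked 226th, Car8 233rd and Atp1b1 286th, the last of these within the first 32.5%, and Aqp4 ranked 585th, below the middle. These ranks describe 1 merged value per age and carry no error.

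**Figure D2:**
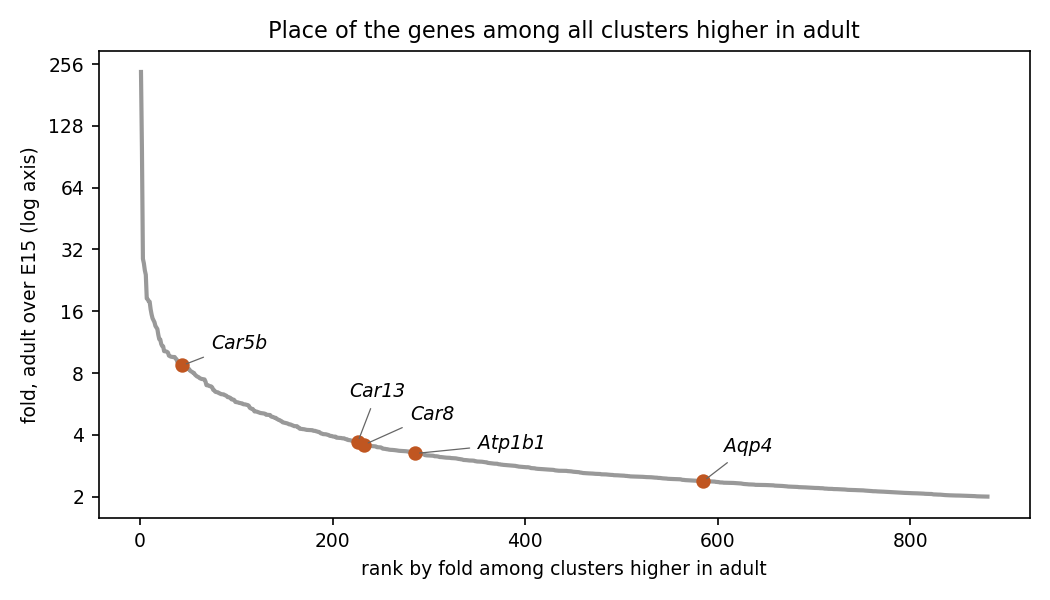
The fold of adult over E15 (log axis) is plotted against rank for the 880 adult-ward clusters of the gene-level table (grey line), with the 5 genes as points. Car5b sits on the steep part of the curve at rank 44, and Aqp4 lies low on its tail at rank 585 with a fold of 2.38.

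Genes with nearly the same pair of values were then looked for in the table of each member, among clusters with a single symbol, by the straight-line distance over both merged values. The nearest to Atp1b1 was Slc46a1, a carrier of folate that works with protons, at a distance of 0.0093 on the log2 scale, followed by Btn2a2 at 0.027. The nearest to Car5b were Gpr37l1 (0.033) and Nos1 (0.051), and the nearest to Aqp4 were Slc5a1 (0.022), a sodium and glucose cotransporter, and P2rx5 (0.028). Car8 was itself the second nearest cluster to Car13, at 0.0285, after Cbr3 at 0.017. The nearest to Car8 were Wfdc2 (0.016) and Ccdc122 (0.025), and to Aqp11 they were Tcf12 (0.015) and Sfrs15 (0.016). With 2 values per gene such likeness is weak: between 11 clusters, for Car5b, and 65, for Atp1b1, lay within 0.1 of a member.

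The rest of the secretory machinery was described from the genes reported here of lists of pumps, carriers, channels and kinases, 120 genes with the 6 members. Of these, 25 were in the gene-level table, 7 only in the splicing index table and 88 in neither. Without the members, the gene-level table held 20 genes, of which 14 lay toward adult (70.0%, beside 48.8% of all clusters) and 6 toward E15. When the table median of either age was set to 0, 14 and 3 of them stayed past 2-fold (82.4% toward adult), as did 880 and 280 of all its clusters (75.9% toward adult). At 3-fold the lean toward adult was gone, with 4 of these genes toward adult and 5 toward E15, beside 341 and 389 of all clusters. The median difference of the 20 genes was 1.18, beside -1.01 over the whole table. As that table holds no difference between -1 and 1, its median follows from which side has more clusters. Both medians therefore restate the shares above and give no size of an effect. The lists were written with earlier results of these data known, so this share describes them and is not independent evidence of a direction.

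Of 19 pumps for other cations, 12 were in neither table. The 5 in the gene-level table were higher in adult, the direction of 48.8% of its clusters, with folds from 2.35 for Atp2c1, whose cluster carries a further symbol, to 5.72 for Atp2a3, a calcium pump of the endoplasmic reticulum. Atp2b2 and Atp2b3, calcium pumps of the plasma membrane, had folds of 2.77 and 2.85, and Atp13a4 had 5.63. Atp2a2 and the copper pump Atp7b were only in the splicing index table, with differences of 0.25 and -0.95. The proton pump that acidifies vesicles had 4 of its 25 genes in the gene-level table. All were higher in adult, again the direction of 48.8% of the table's clusters: Atp6v0e2, Atp6ap2, Atp6v1a and Atp6v0a2, with folds between 2.12 and 2.72.

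Carriers of bicarbonate and chloride differed in direction. Slc4a10, a sodium-coupled bicarbonate carrier of the basolateral membrane of the plexus, was 2.32 higher in adult on the log2 scale, and Slc12a2, the sodium, potassium and chloride cotransporter NKCC1 of its apical membrane, was 2.29-fold higher in adult. Its regulating kinase Stk39 was 2.02-fold higher, just past the 2-fold threshold, and Wnk1, which acts above it, had a difference of -0.04 in a cluster shared with Hsn2. Slc4a2, an anion exchanger, and Slc12a4, a potassium and chloride cotransporter, were only in the splicing index table and were 0.52 and 0.92 higher in adult. Toward E15 the folds were 4.12 for Slc4a4, a sodium and bicarbonate cotransporter, and 5.53 for Slc4a1, the band 3 protein of red blood cells. Among the channels, Trpv4, a cation channel that responds to osmotic and mechanical change, had a fold of 7.55 toward adult and the potassium channel subunit Kcne2 one of 2.19 toward E15, which fell under 2-fold with the gene-level medians set to 0 (difference -0.28).

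**Figure D3:**
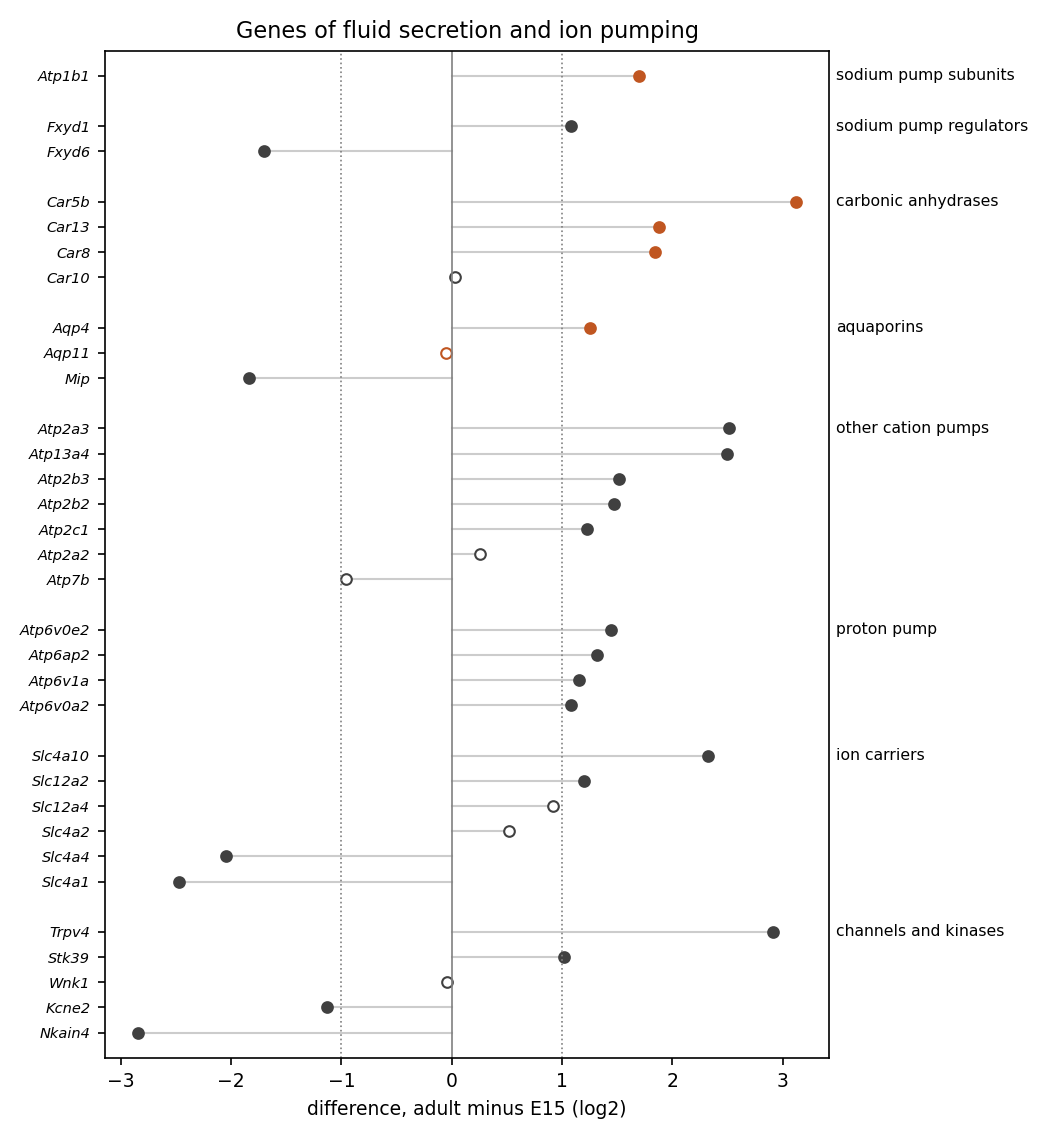
Differences (adult minus E15, log2) of the reported genes of the pump, carbonic anhydrase, aquaporin, carrier and channel lists that had a value, with dotted lines at 2-fold. Filled points are in the gene-level table and open points only in the splicing index table, and the 6 genes described here are in orange. Atp1b1, the carbonic anhydrases and proton pump genes lie right of 0, and aquaporins lie on both sides.

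The tissue was taken whole, so it held vessels, stroma and blood beside the epithelium, and with bulk RNA fewer cells of a type and less RNA per cell cannot be told apart. No levels are held, so the label of the tissue could not be checked against markers such as Ttr, Folr1 and Aqp1, which are in neither table. Of 20 markers of the plexus epithelium, Enpp2 and Sostdc1 were only in the splicing index table, with differences of 0.88 and 0.42, under 2-fold. A further 6 were in the gene-level table. Prlr, Kl, Rdh5 and Trpv4 were higher in adult, as were 48.8% of the clusters of that table, and Prlr was 234-fold higher. Kcne2 and Lmx1a were higher at E15, with differences of -1.13 and -1.14. Both fell under 2-fold with the gene-level medians set to 0. Of 16 erythroid, 12 endothelial and 12 mesenchymal markers, 7, 4 and 6 were in that table, and all of these were higher at E15, as were 51.2% of its clusters, with median differences of -2.61, -1.41 and -1.99. With the gene-level medians set to 0, all kept their sign, but only 1 of the 4 endothelial and 3 of the 6 mesenchymal markers stayed past 2-fold, as did all 7 erythroid markers. The part of this shift in the adult-ward differences of Atp1b1, Car5b, Car13, Car8 and Aqp4 was not tested.

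Markers of astrocytes and neurons bear on Aqp4 and Car8, which those cells express. Of 12 astrocyte markers other than Aqp4, 6 were in the gene-level table. Toward adult lay 3 and toward E15 3, beside 48.8% and 51.2% of its clusters. Toward adult were Aldh1l1 with a fold of 7.45, Gfap with 2.67 and Aldoc with 2.10. Toward E15 were Gja1 with 9.54, Slc4a4 with 4.12 and Slc1a3 with 2.16. Slc1a3 fell under 2-fold with the gene-level medians set to 0. Slc1a2 was only in the splicing index table, with a difference of 0.31 in a cluster that carries a further symbol. Of 13 neuronal markers other than Car8, 3 were in the gene-level table, Syt1 with a fold of 3.92 and Itpr1 toward adult and Nefm with 3.28 toward E15. Nefm fell under 2-fold with the gene-level medians set to 0. A further 3, Camk2a, Slc17a7 and Snap25, were only in the splicing index table, with adult values 6.33-, 3.31- and 2.87-fold above those at E15, and so had not passed the criteria of the gene-level table. In that table alone, 1.16% of the 2151 clusters were at least 2-fold higher in adult. Calb1 and Pcp2, which mark Purkinje cells as Car8 does, were in neither table. Foxj1, Hydin and Dnah5, markers of ciliated ependyma, had folds between 2.03 and 2.08 toward E15, under 2-fold with the gene-level medians set to 0, while Rarres2 and Mia of the same list, only in the splicing index table and in clusters that carry a further symbol, had differences of 0.57 and 0.18. The part of other cell types in the differences of Aqp4 and Car8 was not tested, and summed marker levels cannot be formed from centred values.

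**Figure D4:**
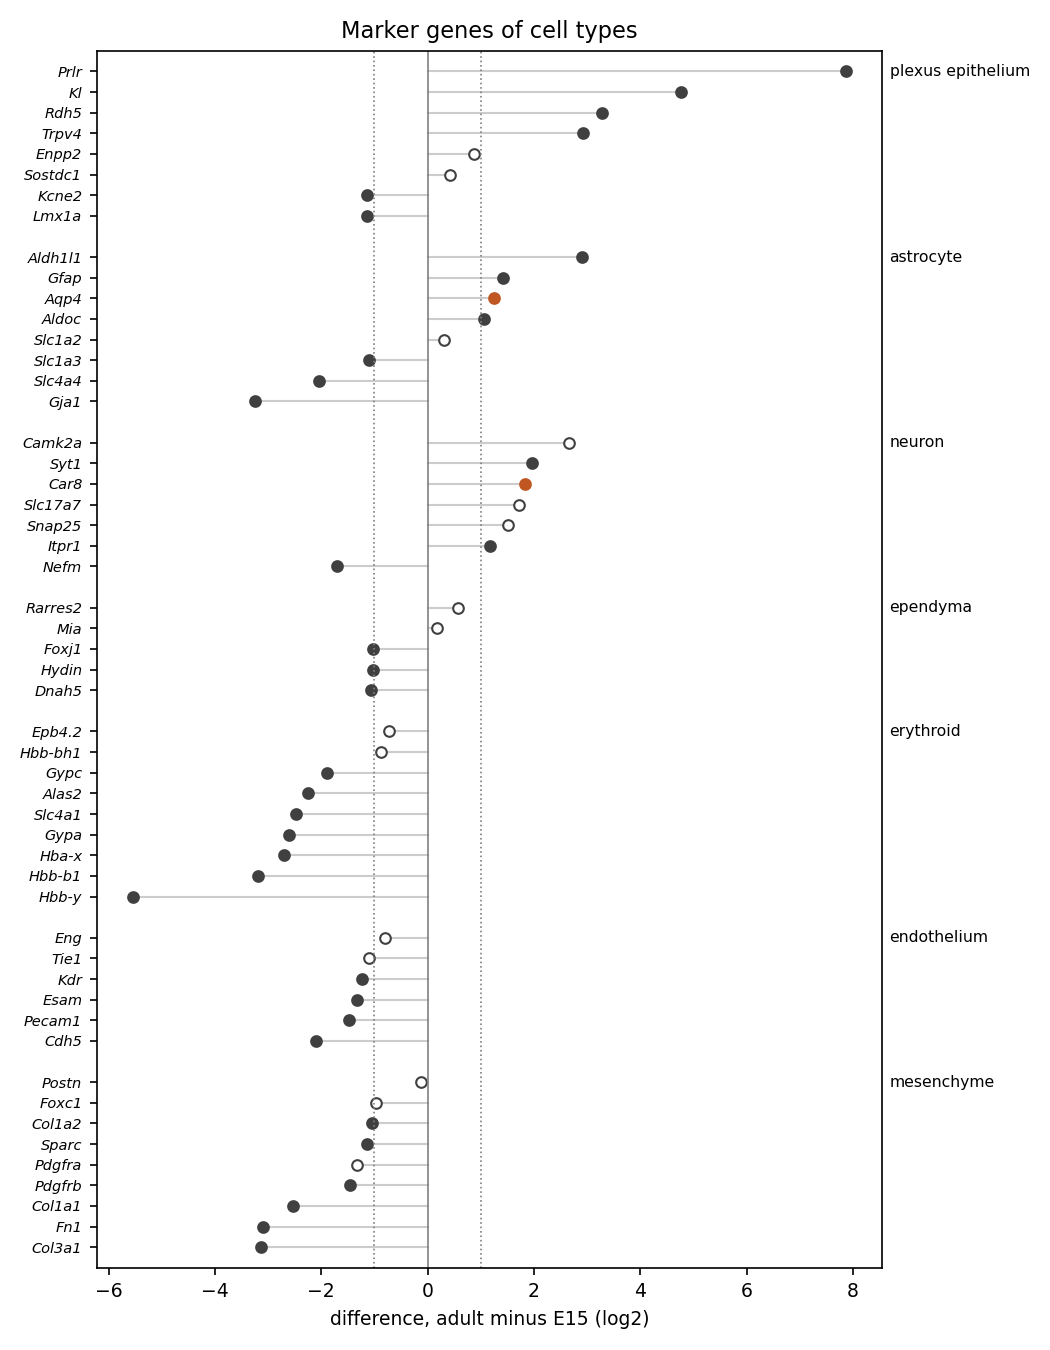
Differences (adult minus E15, log2) of the marker genes of 7 cell types that had a value, with dotted lines at 2-fold, filled points for the gene-level table and open points for the splicing index table only. Aqp4 and Car8 are in orange. Erythroid, endothelial and mesenchymal markers all lie left of 0, astrocyte markers lie on both sides, and neuronal markers other than Nefm lie right of 0.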

How the data were processed

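RNA from 6 pools of lateral ventricular choroid plexus, 3 at E15 and 3 from adults, had been amplified in 2 rounds and measured on Affymetrix mouse exon arrays. The log2 values deposited by the authors were made, per the submitters' processing notes and the study's methods, with Affymetrix Power Tools by RMA with a per-chip median and a filter on expression for the gene level, and for the exon level the study used PLIER, an analysis of variance and a minimum splicing index of 0.5. Which method gave the pair of log2 values in the splicing index table is not stated, but over the 1218 clusters in both tables the values were identical. The versions of these tools and the genome build are not given in the sources used here. Other deposited columns hold the authors' fold changes, directions and splicing indices and were not used. The number of probe sets behind an index is another deposited property of a cluster.

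The planned limma model, leave-one-out fits and replicate block need values for single arrays, which were not used here, and with merged columns differences without a test were used. Their precision is limited by the number of arrays. Members and lists were chosen with earlier results of these data known. Some listed genes are not reported here and were left out of the lists and their counts. Named were the members, every other listed gene with a value and, for each member, its nearest clusters, while Itpr1 and other markers came from the cell type lists. Where a gene had several clusters, a cluster naming no other gene was preferred, then that with the largest fold. Of the listed genes, 3 were found by an older symbol through RefSeq. Alternatives were other centrings, fold thresholds of 1.5 and 3, and cluster and table choices. Changes of a log2 difference or of a count above a factor of 1.5 were counted as shifts. The functions were tested on simulated data. Python 3.11.15, numpy 2.4.6, pandas 2.3.3 and matplotlib 3.10.9 were used.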

Additional observations from a re-analysis of the deposited data

How the results depend on the processing

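Re-centring each age on the median of the gene-level table adds 0.85 to every difference there. That table was selected on fold, and this shift is set by how many clusters were kept on each side. Every fold of a member in it changes by the same factor. The differences became 2.55 for Atp1b1, 2.11 for Aqp4, 3.98 for Car5b, 2.70 for Car8 and 2.73 for Car13. It lowered the secretion genes past 2-fold toward E15 from 6 to 3, as Fxyd6, Mip and Kcne2 fell under 2-fold. The median of the splicing index table, a centring chosen after seeing the data for the genes in both tables, adds 0.16, and Atp1b1, Car5b, Car13 and Aqp4 then had 1.86, 3.29, 2.04 and 1.42. On this table's own median the difference of Aqp11 went from -0.05 to 0.12. A threshold of 3-fold kept 4 of the 5 members and lowered the secretion genes higher in adult from 19 to 8 and those higher at E15 from 6 to 5. The other alternatives changed no direction and moved no log2 difference or count by more than a factor of 1.5: the cluster with the smallest fold, the splicing index table in place of the gene-level table, 1.5-fold over both tables, and clusters with several symbols left out. For the members, the choice of cluster and that of table are no independent checks. The smallest-fold rule returned the same values, and clusters in both tables hold identical values. No paired analysis was possible because the columns used merge the 3 arrays of each age. For the same reason limma and the omission of single replicates were not run. The authors' fold column was not used, so the fold from it was not run either. Signal over background cannot be read from centred values.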

Other observations

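The ontology text of the gene-level table gives carbonate dehydratase activity, the reaction of carbonic anhydrases, for 4 clusters. All were higher in adult, as were 48.8% of the clusters of that table. Beside the members Car5b, Car8 and Car13, the remaining cluster was 1700020C11Rik, with 1.02 in adult and -1.05 at E15, a difference of 2.08 and a fold of 4.22. RefSeq now names that gene Mtfp1, a mitochondrial fission protein that belongs to no carbonic anhydrase family. Car8 carries the same annotation although its protein is known to lack the activity. In the splicing index table alone the term was found for 2 clusters, Car10 and Ptprg, a receptor phosphatase with a carbonic anhydrase-like domain outside the cell, which had a difference of -0.51. A count by this term therefore mixes enzymes with relatives that do not catalyse the reaction.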
